A study of Mus musculus with 24 samples.

Results

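Homeobox genes that set position along the body and the brain were examined in endothelial cells sorted from mouse medulloblastomas and from normal hindbrain. The genes were taken by symbol: all Hox genes of clusters A to D, the anterior and midbrain-hindbrain boundary genes Otx1, Otx2, En1, En2, Gbx1 and Gbx2, the Hox cofactors of the Meis and Pbx families, and the Irx and Lmx1 genes. Of the 22180 genes with a probe set of their own, 56 met this rule, 36 of them Hox genes and 20 of other families.

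The 24 Affymetrix arrays, 8 in each of 3 groups, came from mice all on a mixed strain background. The Wnt group was Wnt medulloblastoma from mice with Blbp-Cre, in which Cre is driven from Blbp, a gene of radial glia and neural progenitors. These mice also carried Ctnnb1 +/Exon3 flox, together with Trp53 flox/flox and with Pik3ca +/flox. The Shh group was Shh medulloblastoma of Ptch+/-; Ink4c-/- mice, germline alleles that the endothelial cells carry too. The third group was hindbrain of adult wild-type mice. The ages of the tumour-bearing mice are not in the labels. In all groups cells were released with papain and enriched on magnetic beads with antibodies to Cd105 and Cd144, the products of Eng and Cdh5. The labels call the samples biological replicates without naming the animals, so the p-values below measure the spread between these samples.

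Homeobox proteins bind DNA through a shared fold, and the embryo uses their combined presence as an address. Hox genes are switched on along the hindbrain and spinal cord in the order in which they lie in their clusters, with low paralogue numbers most anterior. The forebrain and midbrain lie in front of the Hox territory and are marked by Otx2, whose border with Gbx2 fixes the boundary between midbrain and hindbrain, where En1 and En2 are active. Meis and Pbx proteins, which belong to the TALE class, bind DNA together with Hox proteins and raise the specificity of the pair.

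The sequences below belong to the findings below: the start regions of Otx2 and Meis2, the members with the largest rises, and the microRNA encoded beside Hoxb9, the Hox gene that rose. The windows are RefSeq's, build GRCm38.p6, 250 bases before to 50 bases after a gene's start, printed 5′ to 3′ on the gene's strand. Otx2 has 4 such windows and the one at chr14:48667595-48667894 on the minus strand is shown. The Meis2 window lies at chr2:116064570-116064869 on the minus strand, and its capitals mark the letters CTTTGA, the core that TCF and LEF factors of the Wnt pathway bind. The capitals of miR-196a-5p mark its seed, bases 2 to 8, and Mir196a-1 and Mir196a-2 give the same mature sequence.
Otx2: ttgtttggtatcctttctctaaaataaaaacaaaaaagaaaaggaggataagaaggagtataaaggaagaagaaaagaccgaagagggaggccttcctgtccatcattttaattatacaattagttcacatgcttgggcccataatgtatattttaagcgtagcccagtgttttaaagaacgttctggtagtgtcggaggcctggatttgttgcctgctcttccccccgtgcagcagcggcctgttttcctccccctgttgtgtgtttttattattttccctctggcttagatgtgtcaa
Meis2: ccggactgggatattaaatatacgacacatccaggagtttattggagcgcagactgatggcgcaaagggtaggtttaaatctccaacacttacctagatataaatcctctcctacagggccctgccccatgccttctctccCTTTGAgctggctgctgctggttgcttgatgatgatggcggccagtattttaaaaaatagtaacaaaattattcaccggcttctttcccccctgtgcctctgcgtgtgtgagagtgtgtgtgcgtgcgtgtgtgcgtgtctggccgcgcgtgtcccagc
miR-196a-5p: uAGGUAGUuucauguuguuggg

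Windows were found for 33 of the 56 members and for Otx2, Meis2, Meis1 and Irx3 among the 7 that rose by at least 2-fold in Wnt tumours. CTTTGA on either strand stood in 10.5% of the 38 member windows, against 16.0% of the 32851 windows of all genes. The Meis letters TGACAG stood in 7.89% of member windows and 19.2% of all windows. The Pbx-Hox letters TGATNNAT stood in 10.5% and 8.85%. None of the 4 Otx2 windows held any of these motifs, and the match in Meis2, at position -109 relative to the start, was the only match in the 7 windows of these 4 genes.

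The values are log2 intensities as deposited, and the medians of the arrays lay between 5.97 and 6.18. A gene was taken as above background on an array when it exceeded the 95th percentile of that array's 92 ERCC probe sets, which carry no mouse sequence. That percentile lay between 5.09 and 5.63. None of 16 endothelial markers was at background in any group, but their mean level was lower in Wnt tumours, at 9.90 to 11.09, against 11.33 to 11.80 in Shh tumours and 11.44 to 11.77 in hindbrain. In the test across all genes, 16 of 16 endothelial markers fell in Wnt tumours and 2 of 16 in Shh tumours against hindbrain. The fibroblast and meninges markers averaged 8.16 to 9.32, 8.66 to 9.49 and 7.70 to 8.28 in the Wnt, Shh and hindbrain arrays, and the granule neuron precursor markers 6.25 to 6.82, 7.49 to 9.44 and 6.49 to 6.79. In such mixed samples fewer cells of a type and less RNA per cell cannot be told apart, and which cells carried a homeobox transcript was not tested.

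Many Hox genes were at or near background in all groups. Of the 36 Hox genes, 14 in Wnt tumours, 9 in Shh tumours and 13 in hindbrain exceeded background on all 8 arrays, while 11, 13 and 11 did so on no array. The other families were mostly measurable: 18, 16 and 16 of 20 exceeded background on all arrays of the Wnt, Shh and hindbrain groups. Gbx1 was not above background on any array. The plot of all members shows the means of most Hox genes lying together in the 3 groups, with Hoxb9 in Wnt tumours apart.

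**Figure D1:**
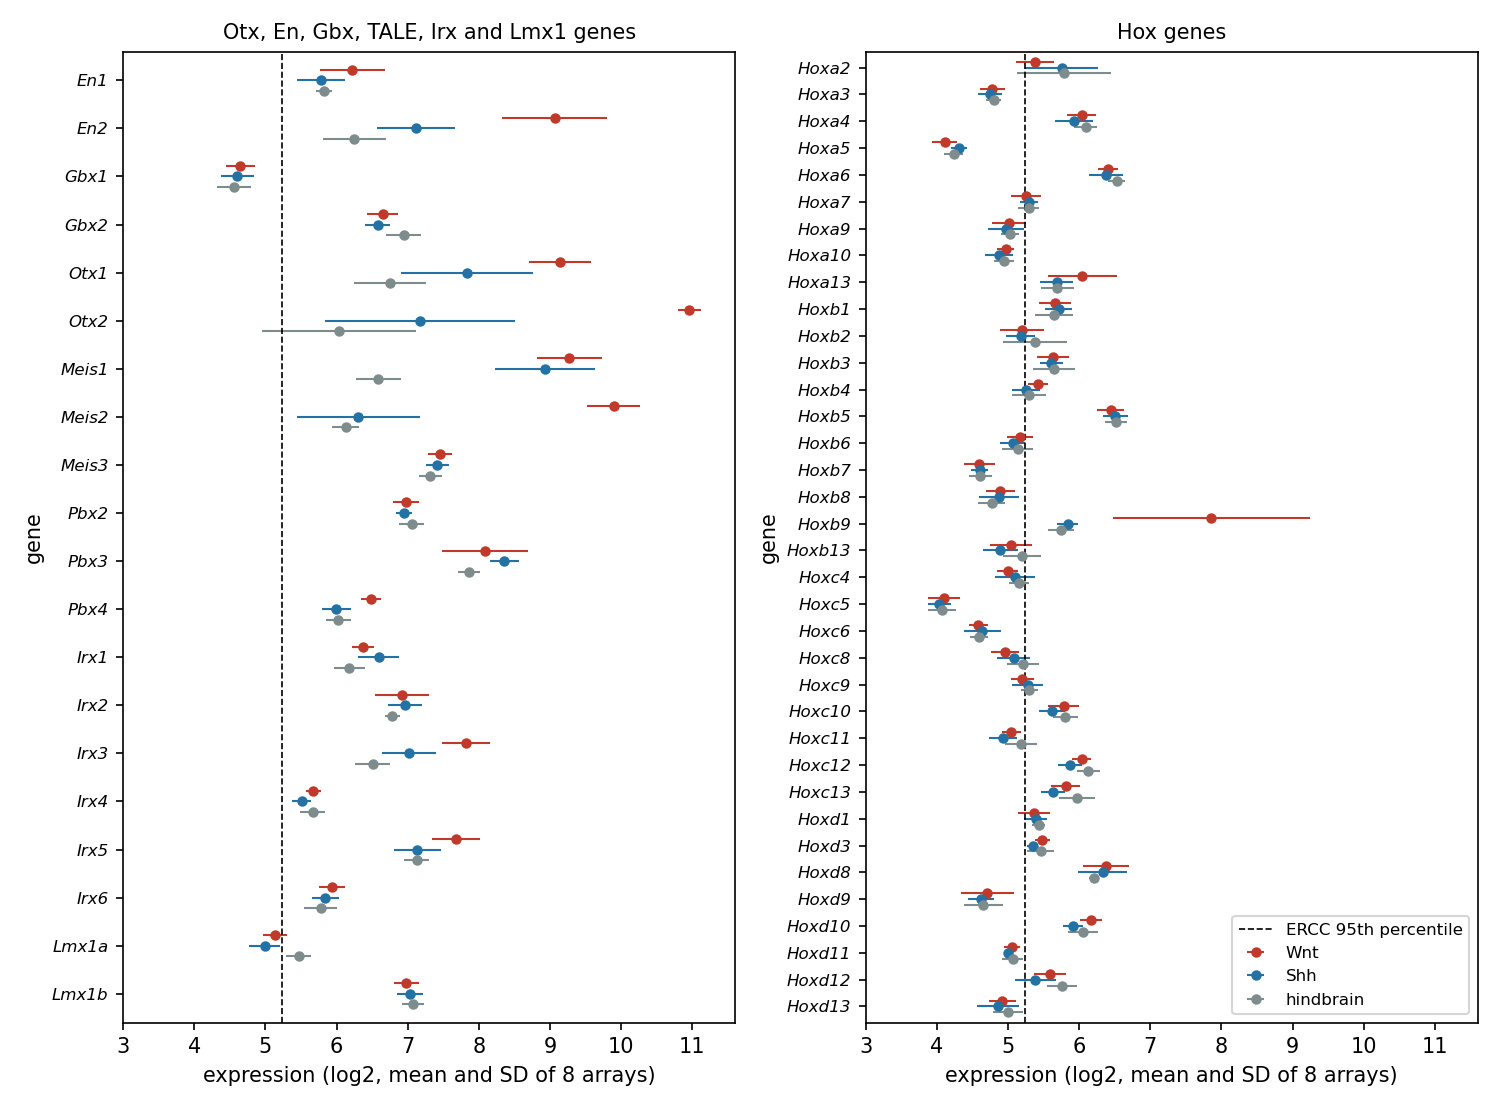
Expression (log2, as deposited) of the 56 homeobox genes, mean and SD of 8 arrays per group, with Wnt, Shh and hindbrain drawn from top to bottom for each gene. The dashed line is the 95th percentile of the mean levels of the ERCC control probe sets, at 5.24, and Otx2, Meis2, En2, Meis1, Otx1, Hoxb9 and Irx3 stand to the right in Wnt tumours.

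Against hindbrain, Otx1, Otx2, En1, En2, Meis1 and Meis2 were among the genes that rose in Wnt tumours, while 1 of the 36 Hox genes changed. A gene counts as called here if limma's p, adjusted by Benjamini-Hochberg over all 22180 genes, was under 0.05. Of the 56 members, 10 rose (En1, En2, Hoxb9, Irx3, Irx5, Meis1, Meis2, Otx1, Otx2 and Pbx4), where 23.2% of all genes rose, and Gbx2 and Lmx1a fell, where 22.0% of all genes fell. Members were thus not called more often than genes in general. At least 2-fold rises were made by 7 members, where 6.79% of all genes rose that far, and at least 2-fold falls by 0, where 5.29% of all genes fell that far. The median log2 change was 0.21 over the 20 members outside the Hox clusters and -0.02 over the 36 Hox genes, against -0.02 over all genes.

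In Shh tumours against hindbrain 6 members rose (En2, Irx1, Irx3, Meis1, Otx1 and Pbx3) and 6 fell (Gbx2, Hoxc11, Hoxc12, Hoxc13, Hoxd12 and Lmx1a), where 18.9% of all genes rose and 18.9% fell. At least 2-fold rises were made by 2 members, Meis1 and Otx1, where 4.14% of all genes rose that far, and 0 members fell that far, where 2.86% of all genes did. The median log2 change was 0.08 over members outside the Hox clusters and -0.05 over Hox genes, against -0.02 over all genes. Both comparisons use the same hindbrain arrays, so their values are given side by side.

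**Figure D2:**
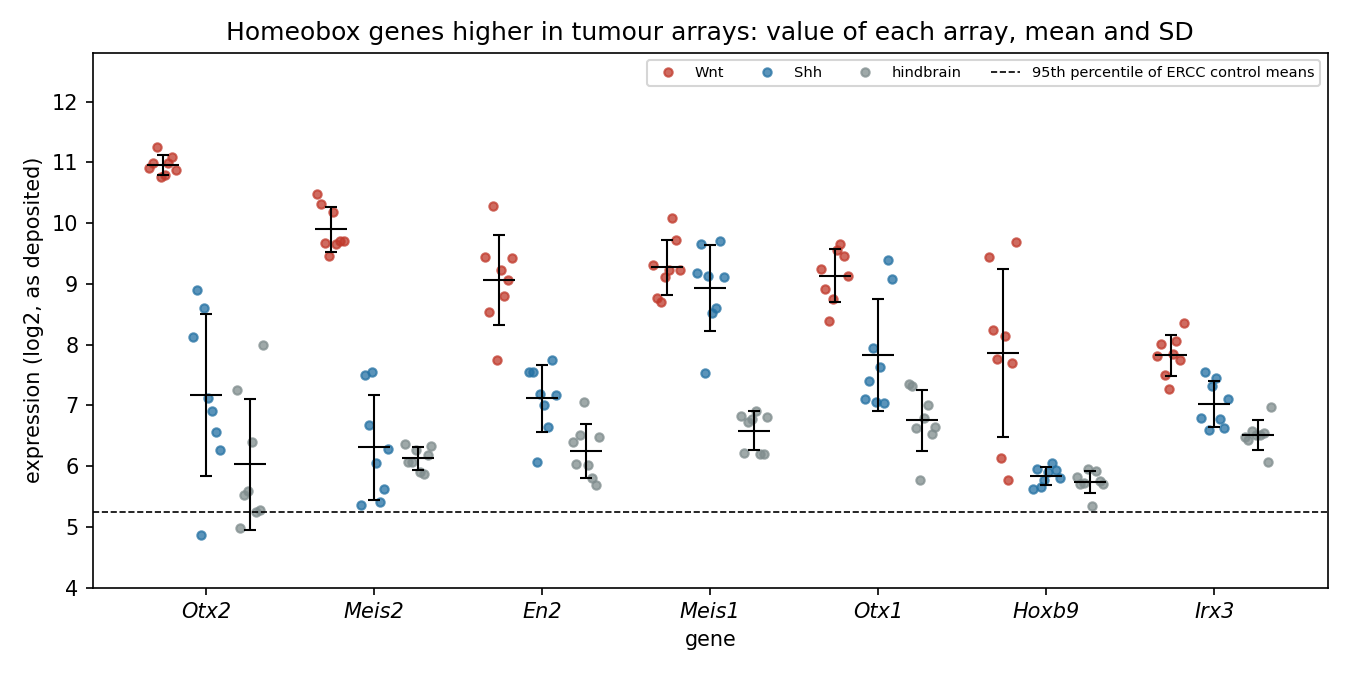
Expression (log2, as deposited) of the 7 members that rose at least 2-fold in Wnt tumours against hindbrain. Each point is 1 array, in the order Wnt, Shh, hindbrain from left to right, bars give the mean and SD of 8 arrays, and the dashed line at 5.24 is the 95th percentile of the ERCC control means; Otx2 in Wnt tumours lies between 10.77 and 11.26, above all other arrays.

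Otx2, the determinant of forebrain and midbrain, had the largest rise. Its lowest, median and highest values were 10.77, 10.95 and 11.26 in Wnt tumours, 4.87, 7.01 and 8.90 in Shh tumours, and 4.98, 5.56 and 7.99 in hindbrain. The Wnt arrays stood together above every other array. The difference was 4.93 ± 0.46 on the log2 scale (SE, n = 8 each), 30.4-fold, between Wnt tumours and hindbrain (limma adjusted p = 3.08e-09). Between Shh tumours and hindbrain it was 1.14 ± 0.46 with overlapping groups and limma adjusted p = 0.056, and it passed the threshold when Shh array 3, Shh array 8, hindbrain array 1 or hindbrain array 8 was left out (1.47, 1.27, 1.31 and 1.42). It also passed with array weights (1.31, limma adjusted p = 0.0164) and without dim genes (1.14, limma adjusted p = 0.0485).

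Otx2 varied within the hindbrain and Shh groups, and its values are given here beside markers of other cells. In hindbrain Otx2 was 7.99, 7.25 and 6.39 on arrays 8, 1 and 5, and these arrays also had the 3 highest means of the choroid plexus and ependyma markers, 8.89, 8.55 and 7.73. On the other hindbrain arrays Otx2 lay at or below 5.58 and that mean at or below 6.74. In Shh tumours Otx2 was lowest on array 3, the array with the lowest mean of granule precursor markers (7.49). Over the 8 Shh arrays r was 0.65 (exact permutation p = 0.0762, adjusted 0.228 over 9 relations) and rho was 0.38, and r was 0.65 without arrays 3 and 7. With so few arrays, a relation was neither established nor excluded. The Wnt arrays had Otx2 above 10.7 with choroid plexus and ependyma marker means of 7.31 to 7.55. These means lay below those of hindbrain arrays 8, 1 and 5 and above those of the other hindbrain arrays. The granule precursor means of the Wnt arrays were 6.25 to 6.82, against 6.49 to 6.79 in hindbrain. Of the 7 choroid plexus and ependyma markers, 2 rose and 4 fell in Wnt tumours against hindbrain. The part of these cells in the Otx2 values was not tested.

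**Figure D3:**
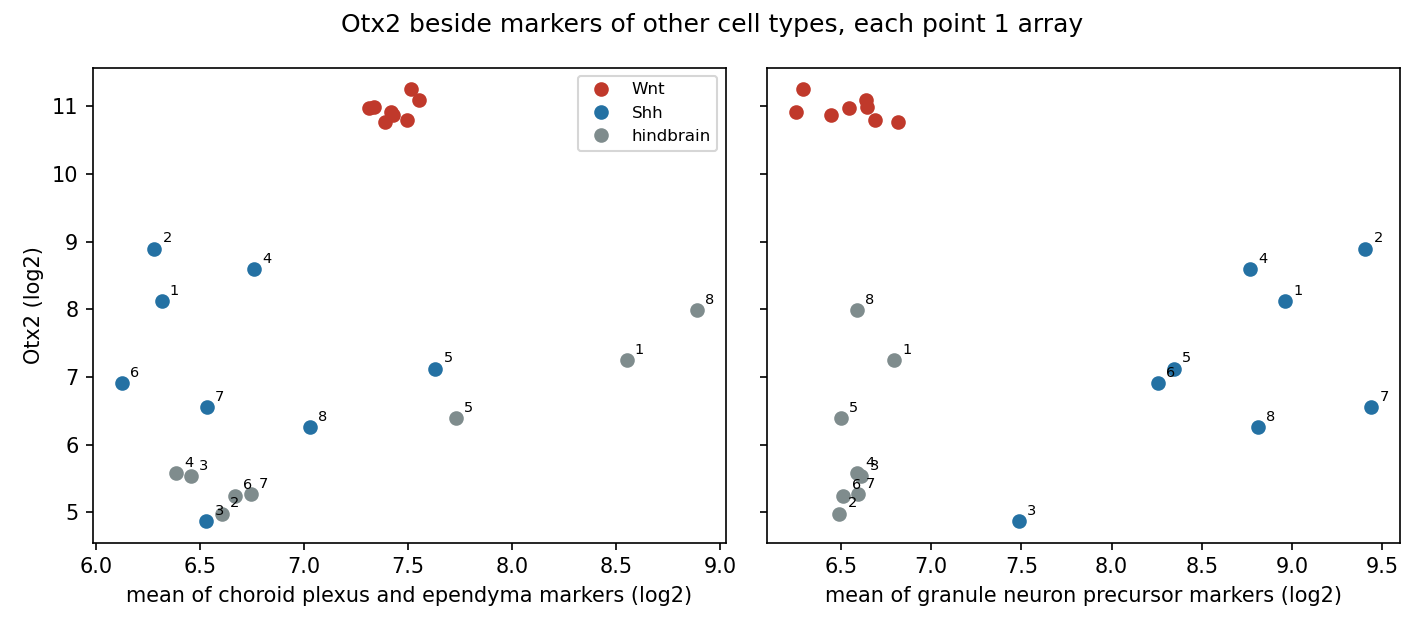
Otx2 (log2) on each array against the mean log2 level of the choroid plexus and ependyma markers (left) and of the granule neuron precursor markers (right); numbers are replicate numbers of Shh and hindbrain arrays. Hindbrain arrays 8, 1 and 5 are high in Otx2 and in the markers at left, while the Wnt arrays lie above 10.7 in Otx2 at marker means that other arrays share or approach.

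The antisense neighbour of Otx2, Otx2os1, chosen after its values had been seen, was also highest in Wnt tumours. Its range was 8.11 to 9.81 in Wnt tumours, 4.42 to 5.99 in Shh tumours and 4.60 to 5.91 in hindbrain. The Wnt arrays did not overlap with either of the other groups, and the log2 difference to hindbrain was 3.50 ± 0.23 (limma adjusted p = 4.44e-12). In Shh tumours it was 0.09 ± 0.23 (limma adjusted p = 0.795). Otx2os1 exceeded background on 8 of 8 Wnt, 5 of 8 Shh and 4 of 8 hindbrain arrays. The strand that the probes read is not given in the sources used here, so transcripts of Otx2 and its antisense gene cannot be told apart.

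Otx1, the paralogue of Otx2 in forebrain and midbrain, rose in both tumours. Its lowest, median and highest values were 8.39, 9.18 and 9.66 in Wnt tumours, 7.04, 7.51 and 9.40 in Shh tumours, and 5.78, 6.72 and 7.35 in hindbrain. Every Wnt array exceeded every hindbrain array, and the Shh arrays overlapped with both groups, with arrays 7 and 8 at Wnt levels. The log2 difference to hindbrain was 2.38 ± 0.31 in Wnt tumours (5.21-fold, limma adjusted p = 4.94e-07) and 1.07 ± 0.31 in Shh tumours (2.11-fold, limma adjusted p = 0.00753).

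En2, a gene of the midbrain-hindbrain boundary that persists in cerebellar cells, also rose in both. It had 7.75, 9.14 and 10.28 as lowest, median and highest values in Wnt tumours, 6.07, 7.18 and 7.75 in Shh tumours, and 5.69, 6.22 and 7.05 in hindbrain. The Wnt group lay above both other groups, though only just above the highest Shh array, both being 7.75 as rounded. The Shh and hindbrain groups overlapped. The log2 differences to hindbrain were 2.82 ± 0.28 in Wnt tumours (7.04-fold, limma adjusted p = 6.27e-09) and 0.86 ± 0.28 in Shh tumours (limma adjusted p = 0.0158). En1, its paralogue, rose by only 0.40 ± 0.16 in Wnt tumours (limma adjusted p = 0.0431). This call ended without Wnt array 3, 4 or 5 or hindbrain array 1, 2, 4, 7 or 8. It also ended with the endothelial marker mean as a covariate (0.57, limma adjusted p = 0.217).

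Gbx2, the hindbrain-side partner of Otx2 at that boundary, fell slightly on the probe set used. Its values were 6.39, 6.69 and 6.97 in Wnt tumours, 6.25, 6.58 and 6.80 in Shh tumours, and 6.38, 7.0 and 7.21 in hindbrain, and the groups overlapped. The log2 differences to hindbrain were -0.30 ± 0.11 in Wnt tumours (limma adjusted p = 0.026) and -0.37 ± 0.11 in Shh tumours (limma adjusted p = 0.00847). A second Gbx2 probe set disagreed for Wnt tumours and was lower by more in Shh tumours (-1.06 ± 0.27), with means of 6.46, 5.21 and 6.27 in Wnt, Shh and hindbrain arrays, and the mean of both probe sets gave -0.05 for Wnt minus hindbrain and 0.66 for Wnt minus Shh (limma adjusted p = 0.0032), against 0.07 on the probe set used. The Wnt call also ended without Wnt array 2, 3 or 5 or hindbrain array 2 or 6. It ended too with each array at the same median (-0.23, limma adjusted p = 0.0981) and with the endothelial marker mean as a covariate (-0.51, limma adjusted p = 0.0784).

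Among the Hox cofactors, Meis2 rose in Wnt tumours and Meis1 in both tumours. Meis2 had 9.46, 9.70 and 10.47 as lowest, median and highest values in Wnt tumours, 5.37, 6.17 and 7.54 in Shh tumours, and 5.86, 6.12 and 6.37 in hindbrain. The Wnt arrays stood apart and the Shh arrays scattered around the hindbrain values. The log2 difference was 3.77 ± 0.26 in Wnt tumours (13.6-fold, limma adjusted p = 1.37e-11) and 0.18 ± 0.26 in Shh tumours (limma adjusted p = 0.634).

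Meis1, by contrast with Meis2, had similar values in the tumours: 8.71, 9.23 and 10.08 in Wnt tumours, 7.53, 9.12 and 9.70 in Shh tumours, and 6.20, 6.75 and 6.90 in hindbrain. Both tumour groups lay above all hindbrain arrays. The log2 differences to hindbrain were 2.69 ± 0.24 in Wnt tumours (6.44-fold, limma adjusted p = 1.61e-09) and 2.35 ± 0.24 in Shh tumours (5.09-fold, limma adjusted p = 4.76e-08). The difference between the tumours was 0.34 ± 0.24 (limma adjusted p = 0.299).

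The remaining cofactors moved little. Pbx4 rose by 0.46 ± 0.09 on the log2 scale in Wnt tumours (limma adjusted p = 0.000126) and differed by -0.03 ± 0.09 in Shh tumours (limma adjusted p = 0.834). Pbx3 rose by 0.50 ± 0.18 in Shh tumours (limma adjusted p = 0.0296), where its range of 8.09 to 8.75 lay just above the 7.57 to 8.04 of hindbrain, and the call ended without Shh array 2, Shh array 7 or hindbrain array 4. Meis3 and Pbx2 passed no test, with log2 differences of 0.14 and -0.08 in Wnt tumours and 0.10 and -0.11 in Shh tumours against hindbrain.

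Irx genes, which pattern neural tissue along several axes, included 2 that rose in each tumour. Irx3 had 7.26, 7.83 and 8.35 as lowest, median and highest values in Wnt tumours, 6.6, 6.95 and 7.55 in Shh tumours, and 6.06, 6.51 and 6.97 in hindbrain. Wnt arrays did not overlap with hindbrain arrays, and Shh arrays overlapped with both. The log2 differences to hindbrain were 1.31 ± 0.16 (2.48-fold, limma adjusted p = 1.26e-07) and 0.51 ± 0.16 (limma adjusted p = 0.0109) in Wnt and Shh tumours. A second Irx3 probe set was flat, with means of 5.80, 5.59 and 5.60, and the mean of both gave 0.76 for Wnt tumours.

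Irx5, the neighbour of Irx3 in its cluster, rose by 0.55 ± 0.14 in Wnt tumours (limma adjusted p = 0.00212) and differed by 0.01 ± 0.14 in Shh tumours. Irx1 rose by 0.41 ± 0.11 in Shh tumours (limma adjusted p = 0.00467). Irx2, Irx4 and Irx6 passed no test in any of the 3 comparisons. Lmx1a, a roof plate and dopaminergic progenitor gene, was near background, above it on 2 of 8 Wnt, 0 of 8 Shh and 6 of 8 hindbrain arrays. It differed from hindbrain by -0.33 ± 0.10 in Wnt tumours (limma adjusted p = 0.00608), a call that ended with the endothelial marker mean as a covariate (-0.24, limma adjusted p = 0.439). In Shh tumours, where it was not above background, hindbrain was at least 1.13-fold higher (limma adjusted p = 0.000296). Lmx1b, which acts in the midbrain-hindbrain boundary and serotonergic neurons, passed no test, with -0.10 and -0.05 in Wnt and Shh tumours.

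Across the Hox clusters, 1 of 36 genes was called in Wnt tumours and 4 of 36 in Shh tumours against hindbrain, where 45.3% and 37.8% of all genes were called in either direction. The 4 called in Shh tumours all belong to paralogue groups 11 to 13, which pattern the posterior trunk and limbs: Hoxc11, Hoxc12 (log2 difference -0.26), Hoxc13 (-0.33) and Hoxd12 (-0.37, limma adjusted p = 0.0155). Other genes of these groups were not called there, among them Hoxa13 and Hoxb13 (-0.31, limma adjusted p = 0.0665). The ranges of Hoxd12 overlapped, 4.85 to 5.70 in Shh tumours and 5.47 to 6.08 in hindbrain. Hoxc11 was above background on 0 of 8 Shh and 3 of 8 hindbrain arrays, so no fold is given, and its call ended under quantile normalization, the 2-group fit and when Shh array 2, 4, 6 or 7 or hindbrain array 1, 2, 3, 6 or 7 was left out. Hoxd12 was above background on 4 of 8 Shh and 8 of 8 hindbrain arrays, Hoxc13 on 7 of 8 and 8 of 8, and Hoxc12 on all of both groups. The calls of these 3 held in every alternative run.

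The anterior Hox genes that mark rhombomeres in the embryo gave no call. Hoxa2, which patterns the second arch and anterior rhombomeres, ranged from 5.07 to 5.85 in Wnt tumours, 5.29 to 6.89 in Shh tumours and 4.95 to 6.77 in hindbrain, with differences to hindbrain of -0.41 ± 0.24 and -0.04 ± 0.24 in Wnt and Shh tumours. Hoxb1, the rhombomere 4 gene, differed by 0.01 and 0.06. Hoxa13 differed by 0.35 ± 0.16 in Wnt tumours (limma adjusted p = 0.0827), and this passed the threshold without Wnt array 3 or 4 and with the replicate block (limma adjusted p = 0.0466).

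**Figure D4:**
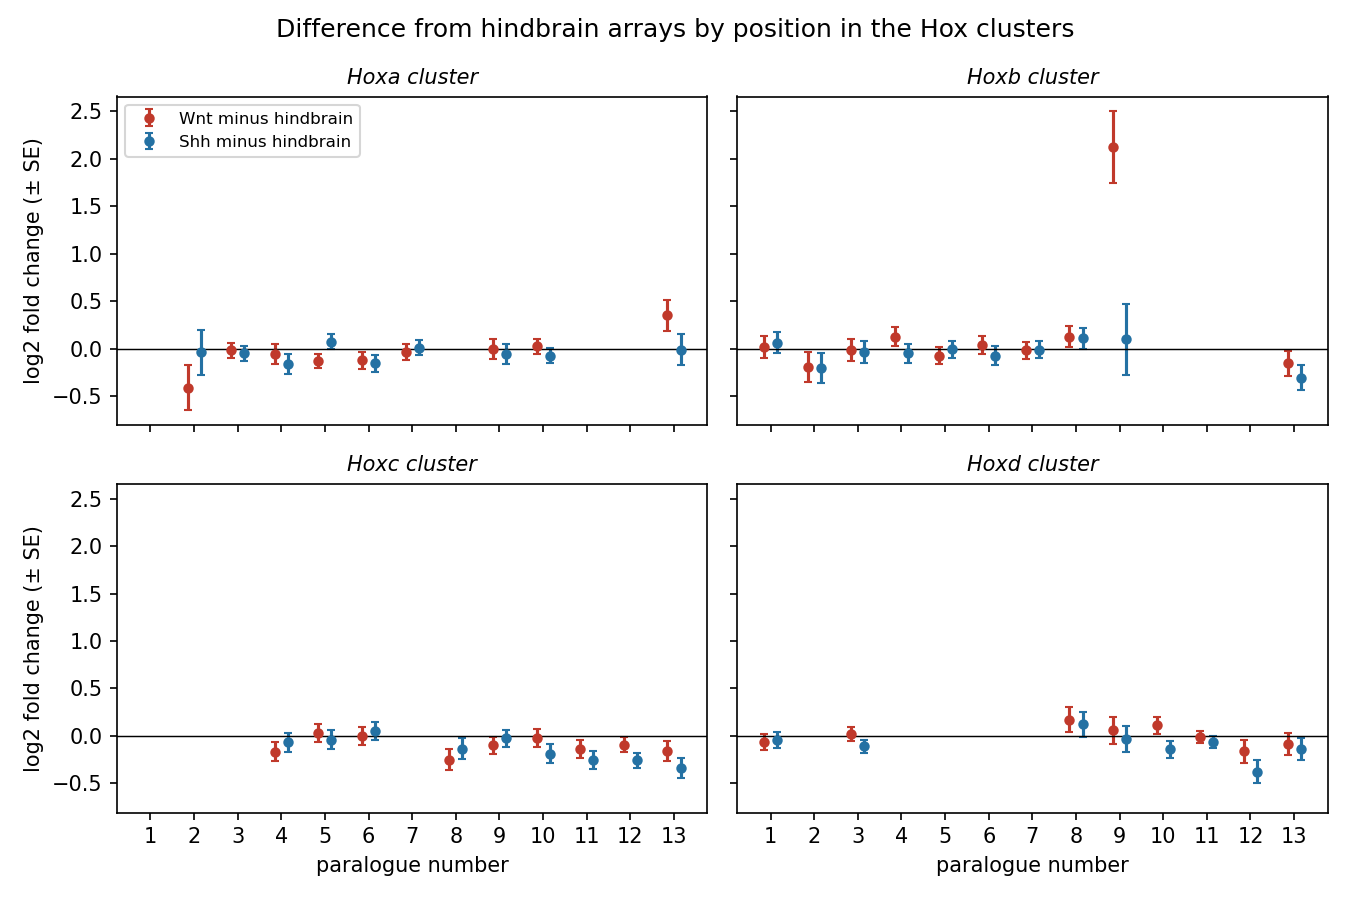
Log2 fold change (± SE) against hindbrain of the 36 Hox genes by paralogue number, 1 panel per cluster, with Wnt minus hindbrain drawn left of Shh minus hindbrain. Hoxb9 at 2.12 in Wnt tumours stands alone, and the other genes lie between -0.41 and 0.35.

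Hoxb9, a thoracic-level gene of the Hoxb cluster, was the exception, and its rise was uneven. Its lowest, median and highest values were 5.78, 7.95 and 9.69 in Wnt tumours, 5.63, 5.85 and 6.05 in Shh tumours, and 5.35, 5.74 and 5.95 in hindbrain. Wnt arrays 8 and 1 were highest, at 9.69 and 9.44, arrays 2, 5, 3 and 7 lay between 7.69 and 8.24, and array 6 lay within the hindbrain range with array 4 (6.13) just above it. The log2 difference to hindbrain was 2.12 ± 0.38 in Wnt tumours (4.34-fold, limma adjusted p = 4.53e-05), with overlapping groups, and 0.10 ± 0.38 in Shh tumours (limma adjusted p = 0.87). Of the Hox genes on either side of it, neither was called in Wnt tumours, and both were dim. Hoxb8 was above background on 0 of 8 Wnt and 0 of 8 hindbrain arrays, and Hoxb13 on 1 of 8 and 4 of 8.

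Mir196a-1, the microRNA gene that RefSeq places between Hoxb13 and Hoxb9, varied with Hoxb9. It was examined after its values had been seen, and whether its probe set reads the mature form or a longer transcript is not given in the sources used here. Its lowest, median and highest values were 4.60, 5.98 and 7.69 in Wnt tumours, 4.58, 4.95 and 5.21 in Shh tumours, and 4.46, 4.79 and 5.78 in hindbrain. It exceeded background on 6 of 8 Wnt arrays, on 0 of 8 Shh arrays and on 1 of 8 hindbrain arrays. The Wnt arrays below background were 4 and 6, the arrays with the lowest Hoxb9.

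The log2 difference of Mir196a-1 to hindbrain was 1.20 ± 0.35 in Wnt tumours (limma adjusted p = 0.00692), and -0.46 with the endothelial marker mean as a covariate (limma adjusted p = 0.656). Against Shh tumours, where it was not above background, Wnt tumours were at least 1.77-fold higher (limma adjusted p = 0.00972), and this call ended without Wnt arrays 1 and 8 (adjusted p = 0.0607). Over the 8 Wnt arrays Mir196a-1 and Hoxb9 correlated with r = 0.97 (exact permutation p = 0.000521, adjusted 0.00469 over 9 relations) and rho = 0.98, and r was 0.95 without arrays 4 and 6. Mir196a-2, which lies in the Hoxc cluster and encodes the mature sequence shown above, averaged 3.95 in Wnt tumours, 4.17 in Shh tumours and 3.96 in hindbrain.

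**Figure D5:**
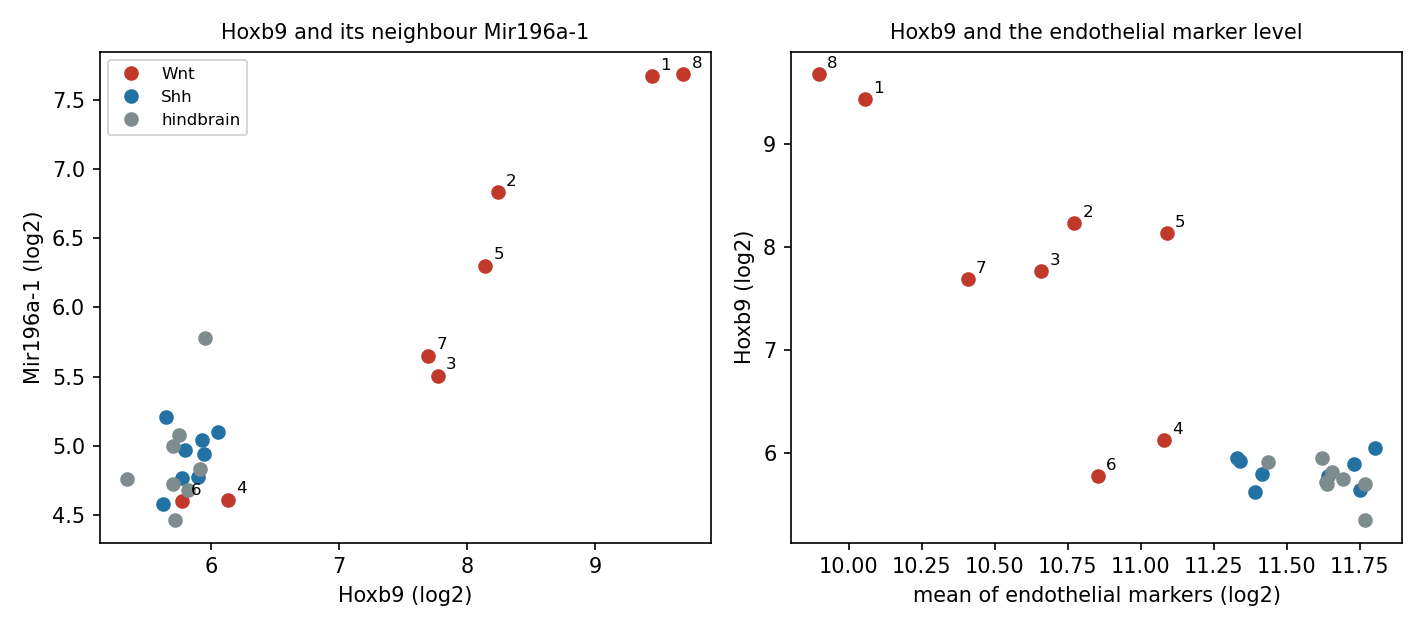
Left, Mir196a-1 against Hoxb9 (log2), and right, Hoxb9 against the mean log2 level of 16 endothelial markers; each point is 1 array and numbers are replicate numbers of the Wnt arrays. Wnt arrays 8 and 1 are highest in Hoxb9 (9.69 and 9.44) and lowest in endothelial markers (9.90 and 10.06).

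Hoxb9 was highest on the Wnt arrays with the lowest endothelial marker level. The marker mean was 9.90 and 10.06 on Wnt arrays 8 and 1, and over the 8 Wnt arrays r was -0.76 (exact permutation p = 0.0317, adjusted 0.143 over 9 relations) and rho was -0.60. Without arrays 1 and 8, r was -0.30, so the relation rests on them. With the marker mean of each array as a covariate, the difference of Hoxb9 in Wnt tumours was 0.11 on the log2 scale (limma adjusted p = 0.929). The Wnt group does not overlap with the other groups in that mean, so in this fit the group and the covariate can hardly be told apart.

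Values of the other large rises in the same fit carry the same limit. They were, for Otx2, 4.74 (limma adjusted p = 0.000393), for Meis2 3.64 (1.02e-05), for Meis1 2.23 (0.000893), for Otx1 1.99 (0.017), for En2 1.80 (0.00758) and for Irx3 0.97 (0.0175). Irx5 turned to -0.19 (limma adjusted p = 0.612). Over the Wnt arrays the correlation with the endothelial mean was between -0.51 and -0.03 for these 6 risers, and no exact permutation p for them was under 0.05 after adjustment over 9 relations. Without arrays 1 and 8, r for Otx2 was -0.82 over 6 arrays (exact permutation p = 0.0417), against -0.16 over all 8.

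Set directly against Shh tumours, Wnt tumours had 10 members higher (En1, En2, Hoxb9, Hoxd10, Irx3, Irx5, Meis2, Otx1, Otx2 and Pbx4), where 18.0% of all genes were higher, and Hoxa5 lower, where 17.8% were lower. At least 2-fold differences were found for Otx2 (3.79 ± 0.46, 13.8-fold, limma adjusted p = 4.4e-07), Meis2 (3.59 ± 0.26, 12-fold, 7.45e-11), Hoxb9 (2.02 ± 0.38, 4.07-fold, 0.00013), En2 (1.95 ± 0.28, 3.87-fold, 3.73e-06) and Otx1 (1.31 ± 0.31, 2.47-fold, 0.0015), where 4.68% of all genes were higher that far. No member was lower by at least 2-fold, where 3.49% of all genes were. The groups did not overlap for Meis2 and Otx2, and for En2 they only just did not. The share of all genes without overlap was not counted. Irx3 was higher by 0.80 ± 0.16 (limma adjusted p = 0.000209). With the endothelial covariate, Otx2, Meis2 and Pbx4 alone remained called among members higher.

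The calls of small size in this comparison were fragile. Hoxa5, at -0.20, was not above background on any array of any group and lost its call under quantile normalization, with equal medians, in the 2-group fit, with the endothelial covariate and without any 1 of 9 arrays (Wnt arrays 1, 2, 3 and 5 and Shh arrays 2, 3, 4, 7 and 8). Hoxd10, at 0.25 ± 0.09, lost it with array weights, with the endothelial covariate and without Wnt array 1 or 5 or Shh array 2 or 8. En1, at 0.44 ± 0.16, lost it with array weights, in the 2-group fit, with the endothelial covariate and without Wnt array 3, 4 or 5 or Shh array 2, 3, 4 or 8.

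A list of other partners of Hox proteins, drawn widely enough to hold the Cdx and Meox homeobox genes, moved in part. Of its 15 genes, 5 rose and 2 fell in Wnt tumours, and 5 rose and 3 fell in Shh tumours against hindbrain, with median log2 changes of 0.04 and -0.06, against -0.02 and -0.02 over all genes. Over all genes, 23.2% rose and 22.0% fell in Wnt tumours, and 18.9% rose and 18.9% fell in Shh tumours. Meox1, a mesodermal homeobox gene, was 6.50 to 8.21 in Wnt tumours, 8.30 to 9.17 in Shh tumours and 6.09 to 6.46 in hindbrain, with no overlap between any groups. Its log2 differences to hindbrain were 1.01 ± 0.19 in Wnt tumours (limma adjusted p = 6.05e-05) and 2.47 ± 0.19 in Shh tumours (limma adjusted p = 2.21e-10). Unlike the large rises above, it was lower in Wnt tumours than in Shh tumours, with a log2 difference of -1.45 ± 0.19 (limma adjusted p = 7.72e-07).

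Retinoic acid is the signal that opens Hox clusters in the embryonic hindbrain. Of 21 measured genes of retinoid signalling and hindbrain segmentation, 8 rose and 3 fell in Wnt tumours, and 3 rose and 5 fell in Shh tumours, with median log2 changes of 0.18 and -0.14. The shares over all genes were 23.2% and 22.0% in Wnt tumours and 18.9% each way in Shh tumours. Rdh10, which makes retinaldehyde, ranged from 10.48 to 12.04 in Wnt tumours, 8.87 to 9.53 in Shh tumours and 7.94 to 8.30 in hindbrain. It differed from hindbrain by 3.23 ± 0.18 (9.37-fold, limma adjusted p = 3.48e-13) in Wnt tumours and 1.01 ± 0.18 in Shh tumours. Aldh1a1, which makes retinoic acid, ranged from 11.11 to 13.05 in Wnt tumours, 7.82 to 9.55 in Shh tumours and 9.04 to 9.61 in hindbrain, with the Wnt arrays apart. It differed by 3.14 ± 0.22 (8.79-fold, limma adjusted p = 2.12e-11) in Wnt tumours and -0.15 ± 0.22 (limma adjusted p = 0.639) in Shh tumours. Its paralogue Aldh1a2 rose in both tumours. With single arrays left out, the log2 difference of Aldh1a2 to hindbrain was 1.30 to 1.89 in Wnt tumours and 1.75 to 2.12 in Shh tumours. The Wnt call of Aldh1a2 ended with the endothelial marker mean as a covariate (0.69, limma adjusted p = 0.668). Egr2, the rhombomere 3 and 5 gene also known as Krox20, fell in both, by 2.02 ± 0.29 and 1.76 ± 0.29.

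Cyp26b1, which degrades retinoic acid, rose as well, with 8.73 to 10.71 in Wnt tumours, 6.52 to 8.10 in Shh tumours and 6.96 to 8.18 in hindbrain. Its difference to hindbrain was 2.28 ± 0.27 in Wnt tumours (4.86-fold, limma adjusted p = 1.53e-07). The Wnt arrays did not overlap with either of the other groups.

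Polycomb and Trithorax proteins keep Hox clusters silent or active. Of 28 measured genes, 10 rose and 11 fell in Wnt tumours, and 13 rose and 7 fell in Shh tumours, with median log2 changes of 0.01 and 0.14. Among all genes 23.2% rose and 22.0% fell in Wnt tumours, and 18.9% did each in Shh tumours. Ezh2, the methyltransferase of dividing cells, rose by 1.16 ± 0.13 in Wnt tumours and 1.39 ± 0.13 in Shh tumours, while its paralogue Ezh1 fell by 1.31 ± 0.11 and 0.64 ± 0.11. Cbx7, a reader subunit, fell by 1.58 ± 0.15 and 1.52 ± 0.15.

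Of 84 measured genes of other homeobox families, 18 rose and 4 fell in Wnt tumours, and 14 rose and 11 fell in Shh tumours against hindbrain, with median log2 changes of 0.05 and -0.08. The risers were a share near that of all genes, 23.2% in Wnt and 18.9% in Shh tumours, where 22.0% and 18.9% fell. Pou3f4, a neural and mesenchymal POU gene, had the largest rise of the list in Wnt tumours, 4.78 ± 0.31 (27.5-fold, limma adjusted p = 4.23e-12), with 8.48 to 11.20 in Wnt tumours, 5.47 to 6.90 in Shh tumours and 5.23 to 5.60 in hindbrain. Lhx9, a LIM homeobox gene of the developing brain and limb, rose by 4.10 ± 0.53 in Wnt tumours, although its lowest Wnt array, at 5.47, lay within the hindbrain range. Barhl1 and Barhl2, genes of the granule neuron lineage, rose in Shh tumours by 2.78 ± 0.22 and 2.12 ± 0.25. Of the granule precursor markers, 10 of 11 rose there, a count that includes Barhl1 itself. Hhex, an endothelial and haematopoietic gene, fell by 1.44 ± 0.11 in Wnt tumours and 0.47 ± 0.11 in Shh tumours.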

How the data were processed

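The deposited values are log2 expression, 1 value per probe set and array, by the authors. Per the submitters' processing notes Partek 6.6 was used, with no role stated, and neither background correction, summarisation nor normalization is described in what was available. Of 41345 probe sets, 23521 had 1 gene symbol in the platform annotation, 1814 had several and 16010 had none. Each of 22180 genes was represented by its probe set of highest mean over 24 arrays, and 22139 matched the RefSeq table. The values were not normalized further.

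Groups were compared over all 24 arrays in 1 model with no covariate (limma 3.58.1, R 4.3.3, lmFit and eBayes, 21 residual degrees of freedom, two-sided), with Benjamini-Hochberg adjustment over 22180 genes, and tested on simulated data. Correlations were tested by exact permutation over all orderings of the arrays (numpy 2.4.6). The fold of a gene not above background on any array of its dim group is given as a lower bound. The number of arrays limits the precision. The best-correlated arrays had r = 0.99, and 0 pairs were identical.

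The members, lists and alternatives were chosen with earlier results of these data known. Named in full were members called with at least a 2-fold change in a comparison and above background on every array of a group, and the 6 with the highest hindbrain means (Pbx3, Meis3, Irx5, Lmx1b, Pbx2 and Gbx2). Each other list was described by its counts and by genes among the 2 largest rises and 2 largest falls per comparison. Members named beyond that rule, and Otx2os1 and Mir196a-1, were chosen after their values were seen. Alternatives were another choice of probe set, normalization or model, a filter on dim genes and leaving out arrays; those for Otx2os1, Mir196a-1, the other lists and the correlations were added after seeing the data.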

Additional observations from a re-analysis of the deposited data

Results flagged for a closer look

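Dixon's test set 2 values apart among 39 groups of 8 examined, where chance flags about 1 in 20. Hoxb9 was low on hindbrain array 5, at 5.35. Gbx2 was low on hindbrain array 8, at 6.38.

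The response against hindbrain differed between Wnt and Shh tumours for 11 of the 56 members by the test of the difference itself, which is Wnt minus Shh on the log2 scale with limma adjusted p under 0.05. This is the direct comparison given above, in which 35.8% of all genes were called in either direction. Members were thus not called more often than genes in general. The differences were 3.79 for Otx2, 3.59 for Meis2, 2.02 for Hoxb9, 1.95 for En2, 1.31 for Otx1, 0.80 for Irx3, 0.54 for Irx5, 0.49 for Pbx4, 0.44 for En1 and 0.25 for Hoxd10. Hoxa5 differed by -0.20, and its probe set was above background on no array. Endothelial markers were lower in Wnt tumours than in Shh tumours, 15 of 16 of them called, and the part of cell makeup in these differences was not tested.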

How the results depend on the processing

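Counts of members called are given as higher then lower, beginning with Wnt minus hindbrain (10 and 2), Shh minus hindbrain (6 and 6) and Wnt minus Shh (10 and 1). For Wnt minus hindbrain 1 member was lower with the mean of the probe sets, with each array at the same median and without dim genes, and 0 with the endothelial marker mean as a covariate. For Wnt minus Shh 0 members were lower under quantile normalization, with each array at the same median, without dim genes, in the fit to the 2 compared groups and with the endothelial covariate, which also left 3 higher. Quantile normalization and equal medians gave 13 higher there. Leaving out each array in turn gave 9 to 10 higher and 1 to 3 lower for Wnt minus hindbrain, 5 to 7 and 5 to 7 for Shh minus hindbrain, and 8 to 11 and 0 to 1 for Wnt minus Shh. The replicate numbers are shared between groups, and whether they pair the samples is not known. Same-numbered arrays correlated at -0.15 to 0.28 in their deviations from the group means, above 0.1 in 3 of 24 pairs. Differently numbered arrays were not set beside them, so these values cannot settle the question. With the replicate block the counts were 10 and 2, 6 and 5, and 11 and 1, and the block ended the calls of En1 in Wnt tumours (0.40, adjusted p = 0.0506) and Hoxc11 in Shh tumours (adjusted p = 0.0647), and added Hoxa13 against hindbrain (0.35, adjusted p = 0.0466) and against Shh tumours (0.36, adjusted p = 0.0495). The direction reversed with the endothelial covariate for Irx5 (-0.19 for Wnt minus hindbrain, -0.12 for Wnt minus Shh), Mir196a-1 (-0.46 and -0.30) and Hdac2 (-0.0032 for Wnt minus Shh), none of them called there. The cause was not tested. Otx2, Meis2, En2, Meis1, Otx1 and Irx3 kept their rise in Wnt tumours against hindbrain in all alternatives run, with the lowest values 4.74, 3.64, 1.80, 2.23, 1.99 and 0.76. Members near the threshold changed calls when single arrays were left out: Hoxb13, Hoxa13, Hoxc8, Hoxc12 and Irx4 gained calls in at least 1 of them. Signals near the ERCC level limit what can be said of the Hox genes.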
